A study of Rattus norvegicus with 9 samples.

Results

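Astrocytes are the glial cells that clear glutamate, move water and potassium, and scaffold the space around hippocampal synapses. The 6 genes described here, of 32545 in the count files, cover the filaments of these cells (Gfap and Vim), their transport proteins (Aqp4, Slc1a2 and Slc1a3) and the calcium-binding protein S100b. They were taken by Ensembl identifier from a list that gave the symbols: Gfap is ENSRNOG00000002919, Vim ENSRNOG00000018087, Aqp4 ENSRNOG00000016043, Slc1a2 ENSRNOG00000005479, Slc1a3 ENSRNOG00000016163 and S100b ENSRNOG00000001295. All 6 had a row in every file and exceeded a mean of 1 CPM (a gene's reads scaled to the reads assigned to genes in that library), and all 6 were among the 14463 genes tested.

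The samples were poly(A)-selected RNA from dorsal hippocampus, and the rats were Sprague-Dawley males aged 8 weeks that had not been through behavioural testing. The 4 rats labelled CTL had control rearing, and the 5 rats labelled ELA had been exposed to early-life adversity, meaning stressful conditions in infancy. The sources used here do not give the procedure used to impose adversity, the litters or any sequencing batch. Each rat gave 1 library with 11049282 to 17089188 reads assigned to genes.

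Gfap encodes the main intermediate filament of mature astrocytes, and Vim encodes vimentin, a related filament that astrocytes raise when they react to injury and that vessel and meningeal cells also make. Aqp4 is the water channel of astrocyte endfeet on blood vessels. Slc1a2 and Slc1a3 are the glial glutamate transporters GLT-1 and GLAST, which end glutamate signals at synapses. S100b is a calcium-binding protein long used as an astrocyte marker, which some cells of the oligodendrocyte lineage also make. A rise of Gfap and Vim is the textbook sign of astrocyte reactivity, whereas the transport genes report on homeostatic functions. These data are from whole tissue, so fewer astrocytes, less RNA per astrocyte and RNA of other cell types cannot be told apart. Markers of other cell types were not read, because none of the sources used here pairs other identifiers with symbols.

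None of the 6 genes differed between ELA and control rats past the threshold (adjusted p under 0.05, edgeR quasi-likelihood test with Benjamini-Hochberg adjustment over all genes tested). The smallest adjusted p among them was 0.531, for Slc1a3, and the largest 0.901, for Gfap. Over all genes tested, 0.0415% were called. DESeq2 and limma-voom also called 0 of the 6 genes. Over all genes, DESeq2 called 142 of the 14488 it gave an adjusted p, and limma-voom called 6 of 14463. At an unadjusted p under 0.05 there was 1 of the 6 genes, Slc1a3, lower in ELA rats. In either direction, 1360 of the 14463 genes tested were under that level, and 4.71% of all tested genes were under it and lower in ELA rats. In 5 of the 6 genes the fitted log2 fold change was negative, that is lower in ELA rats, and in Vim it was positive. The median log2 fold change was -0.12 over the 6 genes and 0.00354 over all genes tested, of which 48.7% were lower. In 0 of the 6 genes were the groups free of overlap, compared with 3.04% of all genes tested.

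**Figure D1:**
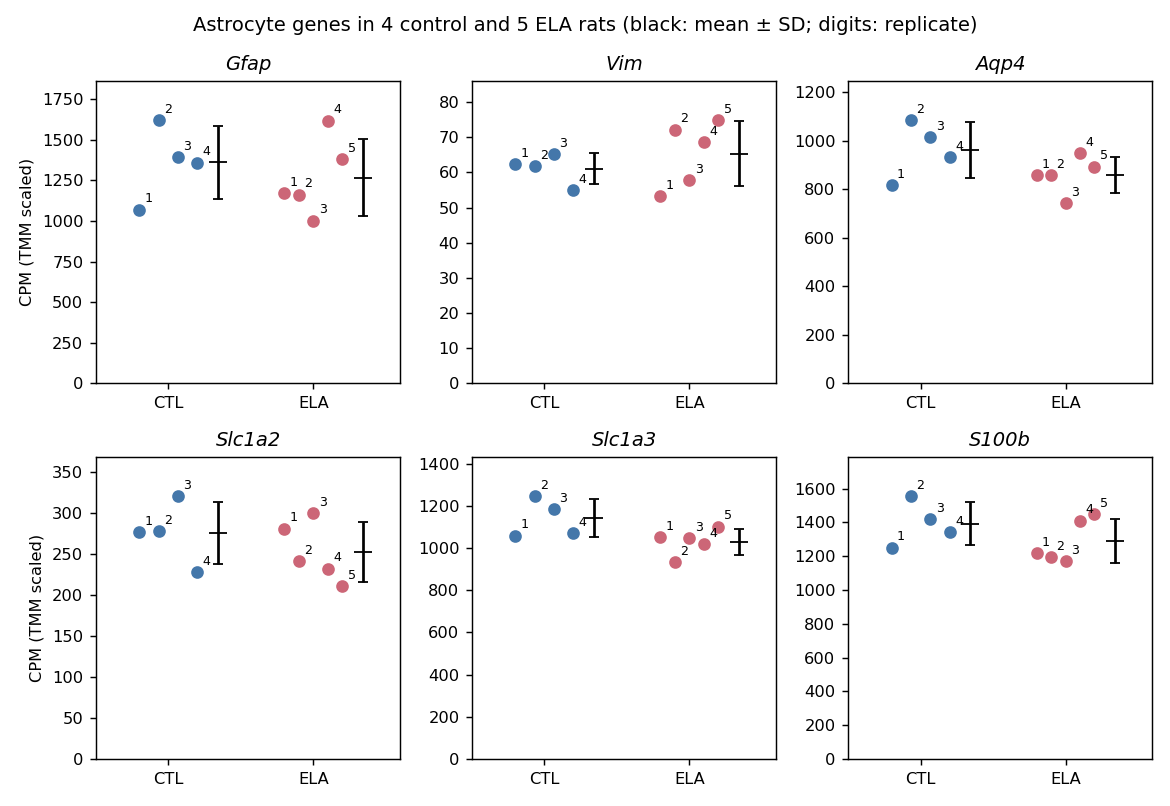
CPM of the 6 genes in each library, 1 panel per gene with its own axis from 0, for 4 CTL rats (blue) and 5 ELA rats (red), with the mean and SD of each group in black and the replicate number beside each point. The groups overlap in every panel.

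Of the filament genes, Gfap was measured at 1069, 1619, 1393 and 1360 CPM in control replicates 1 to 4. In ELA replicates 1 to 5 it was at 1170, 1162, 1002, 1618 and 1382 CPM. The rats at the top, control replicate 2 and ELA replicate 4, were nearly level, and the lowest values were also shared between the groups, in ELA replicate 3 and control replicate 1. The group means were 1360 ± 226 CPM in control and 1267 ± 238 CPM in ELA rats (SD, n = 4 and 5), and the fitted log2 fold change was -0.10 ± 0.14 (standard error, edgeR adjusted p = 0.901). An exact permutation test of the log2 CPM, over all 126 assignments of the libraries, gave a two-sided p of 0.532. The 95% interval of the change ran from -25.3% to 16.1% relative to control.

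Vim was at 62.4, 61.9, 65.1 and 55.0 CPM in control replicates 1 to 4. The ELA replicates 1 to 5 had 53.3, 72.2, 57.9, 68.7 and 74.8 CPM. The ELA rats thus held both the lowest value and the 3 highest. The means were 61.1 ± 4.34 and 65.4 ± 9.33 CPM (SD, n = 4 and 5), and the log2 fold change was 0.09 ± 0.098 (standard error, edgeR adjusted p = 0.849, exact permutation p = 0.476). The 95% interval was -7.92% to 23.8%. The log2 fold change was 0.16 without ELA replicate 1, 0.056 without ELA replicate 2, 0.047 without control replicate 4 and 0.041 without ELA replicate 5. Gfap and Vim, the reactive pair, therefore had fitted changes of opposite sign, neither past the threshold.

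Among the transport genes, Aqp4 was at 818, 1084, 1014 and 931 CPM in control replicates 1 to 4 and at 857, 857, 744, 949 and 893 CPM in ELA replicates 1 to 5. Only control replicates 2 and 3 lay above every ELA rat, and control replicate 1 lay below all ELA rats but replicate 3. The means were 962 ± 115 and 860 ± 74.9 CPM (SD, n = 4 and 5), and the log2 fold change was -0.16 ± 0.087 (standard error, edgeR adjusted p = 0.608, exact permutation p = 0.175). The 95% interval of the change was -21.6% to 1.94%. Control replicates 1 and 2 moved this value more than the other libraries did. The log2 fold change was -0.23 without control replicate 1 (edgeR adjusted p = 0.2, the smallest of the 19 alternative fits) and -0.10 without control replicate 2.

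Slc1a2, the transporter GLT-1, was measured at 277, 277, 320 and 228 CPM in control replicates 1 to 4 and at 280, 241, 299, 232 and 210 CPM in ELA replicates 1 to 5. Its extremes fell in control replicate 3 and ELA replicate 5, with the other rats of both groups interleaved. The log2 fold change was -0.12 ± 0.11 (standard error, 95% interval of the change -22.8% to 9.12%, edgeR adjusted p = 0.820, exact permutation p = 0.405), from means of 275 ± 37.8 and 253 ± 36.5 CPM (SD, n = 4 and 5). It was -0.04 without control replicate 3 and -0.21 without control replicate 4.

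Slc1a3, the transporter GLAST, was at 1058, 1245, 1184 and 1071 CPM in control replicates 1 to 4. In ELA replicates 1 to 5 it was at 1051, 932, 1046, 1018 and 1101 CPM. Of the 5 ELA rats, 4 lay below every control, and ELA replicate 5 lay above control replicates 1 and 4. The means were 1140 ± 90.2 and 1030 ± 62.2 CPM (SD, n = 4 and 5). By edgeR the log2 fold change was -0.15 ± 0.068 (standard error), at p = 0.0499 before and 0.531 after adjustment over all genes, and the exact permutation p was 0.0714. The 95% interval of the change was -18.4% to -0.00363%. Without 1 of the 9 libraries the log2 fold change stayed between -0.18 and -0.10 and the edgeR adjusted p was at least 0.270. The unadjusted p was under 0.05 in 10 of the 19 alternative fits.

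S100b, which belongs to neither class, was at 1251, 1555, 1420 and 1344 CPM in control replicates 1 to 4 and at 1218, 1193, 1169, 1410 and 1447 CPM in ELA replicates 1 to 5. ELA replicates 1 to 3 lay below every control, while ELA replicates 4 and 5 lay among them. The means were 1392 ± 128 and 1287 ± 131 CPM (SD, n = 4 and 5), and the log2 fold change was -0.11 ± 0.084 (standard error, 95% interval of the change -18.5% to 4.86%, edgeR adjusted p = 0.753, exact permutation p = 0.262). The log2 fold change was -0.06 without control replicate 2 and -0.16 without control replicate 1. In the RefSeq gene table of assembly GRCr8, S100b overlaps 1 other gene, Dip2a, and the other members overlap 0. No source used here gives the strand setting of the counting, or whether the annotation used for counting held this overlap. Reads of S100b and Dip2a may not have been told apart, and reads set down to several genes were left out.

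**Figure D2:**
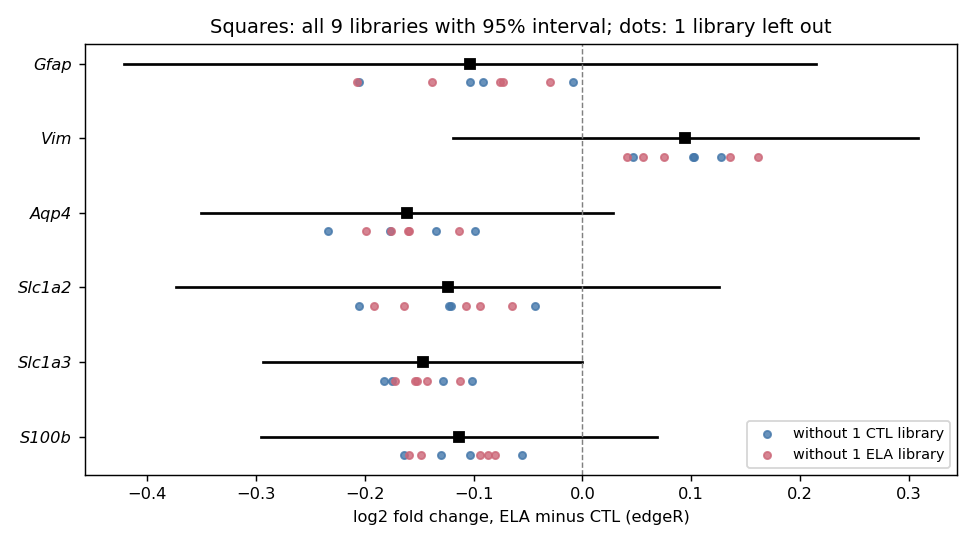
Fitted log2 fold change of each gene, ELA minus CTL, by edgeR: black squares with 95% intervals use all 9 libraries, and dots below them show the value with 1 CTL (blue) or 1 ELA (red) library left out. The 5 genes other than Vim stay at or below -0.00831 in every such fit, and Vim stays at or above 0.041.

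Taking the classes apart, the summed level of Gfap and Vim was 1422 ± 226 CPM in control and 1332 ± 243 CPM in ELA rats (SD, n = 4 and 5). Gfap supplied 94.2 to 96.3% of that sum in each library. The summed level of Aqp4, Slc1a2 and Slc1a3 was 2377 ± 219 and 2142 ± 78.2 CPM, of which Slc1a2 supplied the least, at means of 275 and 253 CPM. CPM are not scaled for transcript length, so shares of these sums are not shares of transcripts. The log2 ratio of the filament sum to the transport sum averaged -0.75 ± 0.14 in control and -0.70 ± 0.23 in ELA rats, and ranged from -0.93 to -0.63 and from -0.98 to -0.38. The range of the ELA rats enclosed that of the controls, with ELA replicate 4 at the top and ELA replicate 3 at the bottom. These sums are given without a test.

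**Figure D3:**
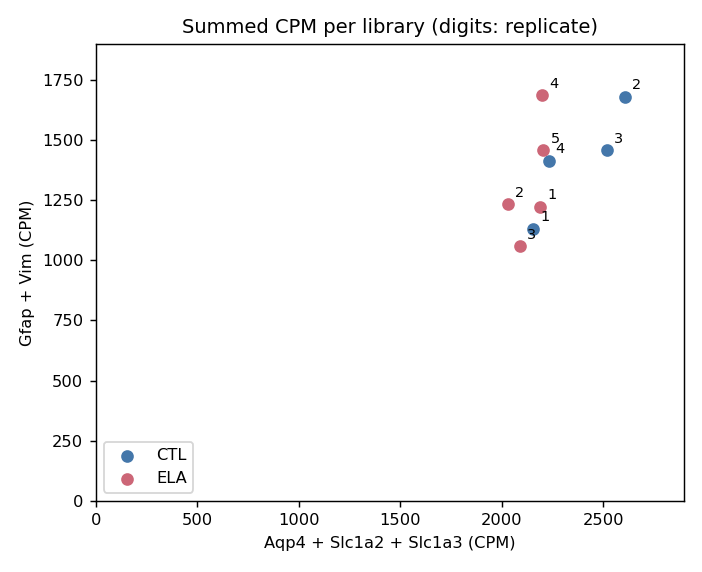
Summed CPM of Gfap and Vim (y axis) against summed CPM of Aqp4, Slc1a2 and Slc1a3 (x axis), 1 point per library, blue for CTL and red for ELA, with the replicate number beside it. ELA replicates 4 and 3 hold the highest and the lowest filament sums, 1687 and 1060 CPM, at transport sums of 2199 and 2089 CPM.

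The spread between rats of 1 group differed from gene to gene. The coefficient of variation of Gfap was 16.6% among controls and 18.8% among ELA rats, whereas its 13667 to 21426 reads per library carry a counting error of at most 0.855%. The SD of log2 CPM within groups was 0.26 for Gfap (percentile 77.7 of the genes tested). It was 0.21 for Slc1a2 (percentile 68.1) and 0.17 for Vim (percentile 59.4), and was lowest for Slc1a3, at 0.10 (percentile 27.9). Vim had the fewest reads, 773 to 1027 per library, and a counting error of up to 3.6%. The counting error does not cover noise from library preparation, which these data do not separate from differences between animals.

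Gfap, Aqp4 and S100b varied together across the 9 rats, and Slc1a2 and Vim did not follow them past the threshold. The 4 rats lowest in Gfap, namely control replicate 1 and ELA replicates 1 to 3, were also the 4 lowest in Aqp4 and in S100b, so these genes ordered the rats across the rearing groups. Gfap and Aqp4 correlated with Pearson's r = 0.902 and Spearman's rho = 0.95 (exact permutation p = 9.2e-04 and 3.5e-04, adjusted 0.0079 and 0.0053 over the 15 pairs of genes). Gfap and S100b had r = 0.909 and rho = 0.883 (exact permutation p = 0.00155 and 0.00308, adjusted 0.0079 and 0.0231). Aqp4 and S100b had r = 0.882 and rho = 0.833 (exact permutation p = 0.00158 and 0.00827, adjusted 0.0079 and 0.0413). Without the 2 rats farthest from the median of the first gene, r was 0.797, 0.897 and 0.746 in this order and 0 of the 15 pairs passed. With the group means removed it was 0.937, 0.92 and 0.855. Without control replicate 2, the highest rat in all 3 genes, none of the 15 pairs passed, and the adjusted exact permutation p of these 3 pairs reached 0.0589, while r was at least 0.814 for the 3 pairs without any 1 rat.

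The other 12 pairs did not pass after adjustment. Slc1a3 came nearest, with S100b (r = 0.75, rho = 0.783, exact permutation p = 0.016 and 0.0172, adjusted 0.06 and 0.0646), and r fell to 0.47 without the 2 farthest rats. The 2 glutamate transporters were related at r = 0.372 and rho = 0.117 (exact permutation p = 0.328 and 0.776, adjusted 0.583 and 0.81). The filament genes Gfap and Vim were related at r = 0.297 and rho = 0.233 (exact permutation p = 0.427 and 0.552, adjusted 0.583 and 0.792). Slc1a2 had r = -0.331 with Gfap and r = -0.437 with Vim, with adjusted exact permutation p of 0.583 and 0.505. In 5 of these 12 pairs the sign of r changed under at least 1 alternative, so no direction is given for them as a group.

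**Figure D4:**
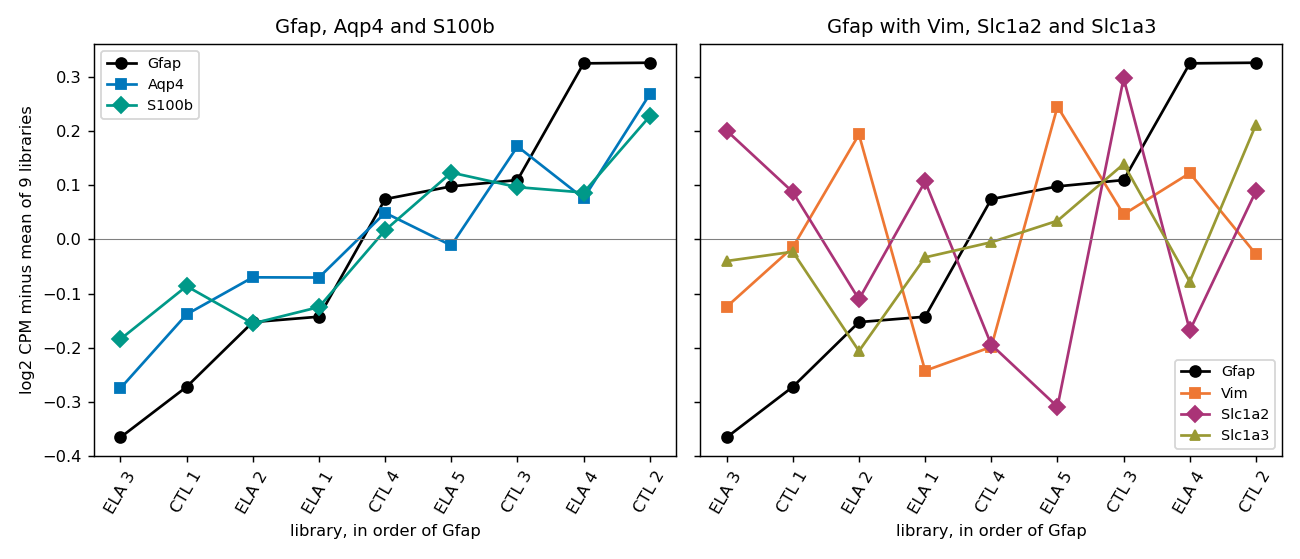
Log2 CPM of each gene minus its mean over the 9 libraries (y axis), with libraries on the x axis in order of Gfap and lines joining the points of 1 gene for the eye. Aqp4 and S100b climb with Gfap in the left panel. In the right panel r with Gfap is 0.297 for Vim, -0.331 for Slc1a2 and 0.496 for Slc1a3, none past the threshold.

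**Figure D5:**
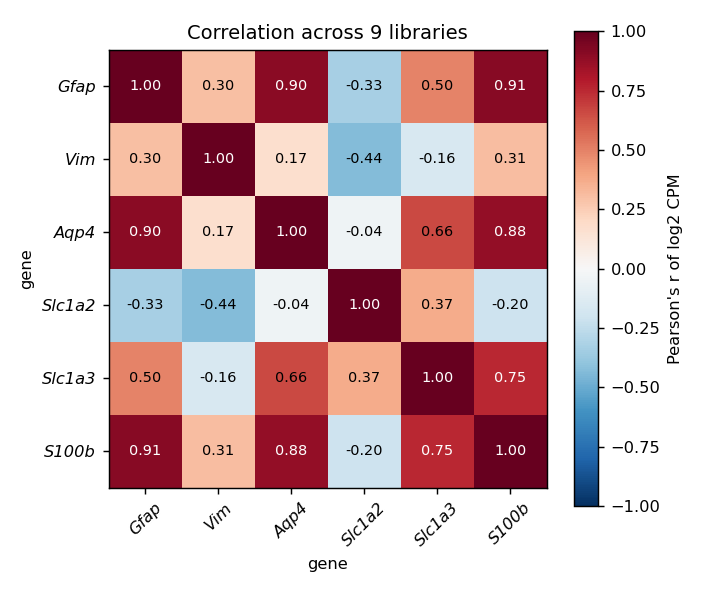
Pearson's r of log2 CPM between each pair of the 6 genes across 9 libraries, from blue (-1) over white (0) to red (1). The values of 0.90, 0.91 and 0.88 among Gfap, Aqp4 and S100b are the highest off the diagonal.

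The place of each gene among all other genes gives a scale for these values. Ordered by r with Gfap over the 9 libraries, among 13905 other genes with a mean of at least 1 CPM, S100b was number 124 and Aqp4 number 151, both within the nearest 1.09%. Slc1a3 was number 3367, Vim number 5008 and Slc1a2 number 9430. The gene nearest to Gfap was ENSRNOG00000017976 (r = 0.976), for which the files give no symbol. It was at 35.1 ± 5.34 CPM in control and 32.9 ± 6.42 CPM in ELA rats (SD, n = 4 and 5). In the order by r with Slc1a2, Slc1a3 was number 2559 and Aqp4 number 7059. The nearest there was ENSRNOG00000005191 (r = 0.963), at 77 ± 5.25 and 74.8 ± 6.36 CPM. These ranks are a description, since all genes share the same 9 libraries and their depth.

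Library properties were set beside the 6 genes in 18 relations. The properties were the reads assigned to genes, the share of counted records aligned to several places and the share outside annotated genes. With adjustment over the 18, the smallest exact permutation p was 0.181 for r and 0.386 for rho, so none passed. The closest was Vim with the share of records aligned to several places, which ran from 14.3 to 21.1% (r = 0.787, rho = 0.717, exact permutation p = 0.0101 and 0.0369, and r = 0.616 without the 2 farthest rats). Gfap had r = 0.41 and rho = 0.617 with that share (exact permutation p = 0.277 and 0.0857), and r = 0.868 without the 2 farthest, control replicate 4 and ELA replicate 5. S100b had r = 0.422 and rho = 0.55 with it (exact permutation p = 0.262 and 0.133), and r = 0.63 without the same 2 rats. Aqp4 had r = 0.226 and rho = 0.467 (exact permutation p = 0.569 and 0.213), and r = 0.658 without them. Without the same 2 rats, Slc1a2 had r = -0.643 and Slc1a3 r = 0.0124. With the group means removed, r with that share was 0.607 for Gfap, 0.621 for Aqp4 and 0.782 for S100b. It was 0.778 for Vim, 0.552 for Slc1a3 and -0.146 for Slc1a2. Positive values were thus not limited to the genes that varied together. The part of these library properties in the shared order of Gfap, Aqp4 and S100b was not tested.

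The DNA just before the starts of the 3 genes that varied together, and of Slc1a2, whose correlations with them did not pass, is shown so that the compared regulatory regions can be read. All 6 symbols were found in the RefSeq promoter table, in 10 windows, and the 250 bases before the start are given, 5′ to 3′ on the gene's strand in assembly GRCr8, a later build than the rn6 used for counting. Capitals mark the core of nuclear factor I sites, TTGGC or its reverse complement GCCAA. For Aqp4 and Slc1a2 the first of 2 listed starts is shown. The windows lie at chr10:88361662-88361911 (Gfap, minus strand), chr18:6798843-6799092 (Aqp4, minus strand), chr20:12381082-12381331 (S100b, minus strand) and chr3:109459859-109460108 (Slc1a2, plus strand).
Gfap: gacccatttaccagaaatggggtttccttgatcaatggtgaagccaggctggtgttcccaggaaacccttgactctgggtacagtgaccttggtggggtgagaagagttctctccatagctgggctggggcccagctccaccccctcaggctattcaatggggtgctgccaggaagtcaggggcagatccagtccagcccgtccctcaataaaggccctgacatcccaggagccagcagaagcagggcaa
Aqp4: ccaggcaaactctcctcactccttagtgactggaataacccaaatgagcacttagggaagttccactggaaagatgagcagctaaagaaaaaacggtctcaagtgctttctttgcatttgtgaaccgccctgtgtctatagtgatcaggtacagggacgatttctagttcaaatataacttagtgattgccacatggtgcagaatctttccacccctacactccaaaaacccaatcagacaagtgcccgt
S100b: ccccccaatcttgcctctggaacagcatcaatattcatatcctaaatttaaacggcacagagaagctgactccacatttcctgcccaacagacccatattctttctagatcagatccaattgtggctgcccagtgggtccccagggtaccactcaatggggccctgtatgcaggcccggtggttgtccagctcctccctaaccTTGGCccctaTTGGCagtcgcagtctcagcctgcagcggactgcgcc
Slc1a2: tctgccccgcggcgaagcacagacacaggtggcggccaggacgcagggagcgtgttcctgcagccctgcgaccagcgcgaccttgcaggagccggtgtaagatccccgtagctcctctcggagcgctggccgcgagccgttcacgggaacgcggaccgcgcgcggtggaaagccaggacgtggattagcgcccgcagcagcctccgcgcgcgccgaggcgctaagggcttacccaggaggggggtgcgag

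The core occurred at 2 places in the S100b window, 47 and 37 bases before the start, and at 0 places in the windows of Gfap and Aqp4 and in the first of Slc1a2. Vim held 2 matches, Slc1a3 had 1 in each of its 3 overlapping windows, and the second Slc1a2 window had 1. Among all 33469 windows of this length, 40.3% held the core on either strand. Also searched on both strands were the STAT palindrome TTCNNNGAA, found in 7.67% of all windows, the AP-1 site TGANTCA (6.34%) and the SOX core AACAAT (10.3%). The 10 windows of the 6 genes held 0 matches of these motifs. Matches are runs of letters, not known binding sites, and their absence says only that the letters are not in these 250 bases.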

How the data were processed

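RNA was sequenced from 9 rats, 1 library each. The authors deposited raw read counts for 32545 Ensembl genes per library; the submitters' processing notes name STAR 2.5.0, HTSeq 0.6.1 and the build rn6. Annotation release and strand setting: not given in the sources used here. The 5 summary entries of each file were left out of library sizes. They held reads outside genes (15.2 to 18.1% of records), of several genes (1.57 to 1.8%) or aligned to several places (14.3 to 21.1%); the other 61.9 to 65.7% were assigned to genes.

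Groups came from the titles. The test was that of edgeR 4.0.16 in R 4.3.3 (filterByExpr, TMM, robust quasi-likelihood test, Benjamini-Hochberg adjustment over 14463 genes), with DESeq2 1.42.0 and limma 3.58.1 as alternatives. The edgeR test was also run on simulated counts, with changes larger than those fitted for the 6 genes. That run therefore does not show how often changes of this size would be found. CPM in the text are TMM scaled; log2 CPM used a prior count of 2. Correlations and single values used exact permutation tests, for which the smallest p of a group difference is 0.00794. Each replicate is 1 animal; litters are unknown. The 6 genes, their grouping and the tests were chosen with earlier results of these data known. Named genes were the 6 members and the gene nearest in r to Gfap and to Slc1a2. Gene symbols came with the list of members: the RefSeq table used here (47357 genes, GRCr8) pairs 0 genes with Ensembl identifiers, so lists of other astrocyte, reactive and cell type genes were not run.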

Additional observations from a re-analysis of the deposited data

How the results depend on the processing

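The direction of all 6 genes was the same in each of the 19 alternative fits (scaling, filter, tool, block and libraries left out), negative for 5 genes and positive for Vim, and 0 of the 6 were called in any of them or at an adjusted p under 0.1. These fits reuse the same libraries, so their agreement is not independent evidence for a direction. At an unadjusted p under 0.05, 1 of the 6, Slc1a3, was counted with all libraries, beside 1360 of the 14463 genes tested. Slc1a3 was below that level in 10 of the 19 alternative fits, and not with the mean CPM filter, without robust estimation or with the title block, where the count was 0. Aqp4 was below it without control replicate 1, with Slc1a3, and without ELA replicate 4, where Slc1a3 was not. Gfap depended most on single rats: its log2 fold change was -0.01 without control replicate 2, -0.21 without control replicate 1 and -0.21 without ELA replicate 4. Vim was at 0.035 with the title block and 0.158 with the description block. The number of genes called over the whole table, 6, became 11 with no filter, 142 by DESeq2, and 2 to 130 with 1 library left out, the highest without control replicate 1. A replicate block gave 1 called gene by title number and 78 by description number. Deviations of same-numbered rats correlated at -0.13 to 0.24 by title and -0.17 to 0.24 by description. In each numbering, 1 of 4 controls was nearest to its own number. With 4 pairs per numbering, these values cannot decide whether either numbering marks a pairing of the rats. The number of correlated pairs of genes, 3, was 4 without scaling factors, 0 without the 2 farthest rats, and 0 to 4 with 1 library left out. The 0 arose without control replicate 2, where the adjusted exact permutation p of the Gfap, Aqp4 and S100b pairs reached 0.0589. The cause was not tested. The alternatives for correlations other than the group means and the 2 farthest rats were chosen after seeing the data. Vim had the fewest reads and a counting error of up to 3.6%, below its coefficients of variation of 7.1% among controls and 14.3% among ELA rats.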
